A study of Mus musculus with 4 samples.

Results

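Cell proliferation in the lung was followed here through 48 genes of the cell cycle and of DNA replication, read from the RNA-Seq of the mouse amiodarone model. The members were listed by gene symbol, and all 48 were found among the 17780 genes of the deposited table. They comprise 10 S-phase genes (Mcm2 to Mcm7, Pcna, Rrm1, Rrm2 and Tyms), 7 genes of the G1/S transition (Ccne1, Ccne2, Cdc6, Cdc45, Gins2, Tk1 and Uhrf1), 27 mitotic genes, the transcription factors Foxm1 and Mybl2, and Stmn1 and Hmgb2.

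The lungs came from male C57BL/6J mice, 6 to 7 weeks old when obtained, in 4 groups treated by mouth 5 times per week for 4 weeks. The groups received vehicle (a carboxymethylcellulose solution), amiodarone, an anti-arrhythmic agent, at 300 mg per kg, dabigatran, a thrombin inhibitor, at 60 mg per kg, or both drugs. The methods place the tissue at day 26 and the labels at 28 days. Each group is 1 library of whole lung, the 4 libraries holding 17498486 to 18903401 estimated reads, so no difference below has a replicate check and none was tested across animals.

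In a dividing cell, the E2F factors first switch on the genes that license and copy DNA: the MCM helicase that opens the origins, the sliding clamp, and the enzymes that make deoxynucleotides. Later, the MuvB complex with B-Myb and FoxM1 switches on the genes of mitosis, among them the cyclins of mitosis, the kinases of the spindle and the kinetochore proteins. Resting cells hold both classes down, and adult lung is a tissue of slow turnover, so that the level of these genes in bulk RNA depends on a small share of cycling cells.

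The promoters of both classes are known to differ in the sites they carry. As examples, 4 are printed: those of Mki67 and Top2a, the mitotic members with most reads, of Mcm6, an S-phase member with E2F letters, and of Mcm3, an S-phase member without them. Mcm6 and Mcm3 were chosen for having and lacking these letters, so the examples do not measure a difference between the classes. They are RefSeq sequences for GRCm38.p6, read 5′ to 3′ on the strand of the gene, all on the minus strand. The Mki67 stretch lies at chr7:135716451-135716629, that of Top2a at chr11:99024200-99024439, that of Mcm6 at chr1:128359706-128359955 and that of Mcm3 at chr1:20820313-20820562. Capitals mark the letters searched on both strands: CCAAT (which reads ATTGG on the other strand), the CHR letters TTTGAA with the variant form TTCGAA of that element, and the E2F letters TTTGGCGC, TTTCCCGC, TTTCGCGC and TTTGCCGC.
Mki67: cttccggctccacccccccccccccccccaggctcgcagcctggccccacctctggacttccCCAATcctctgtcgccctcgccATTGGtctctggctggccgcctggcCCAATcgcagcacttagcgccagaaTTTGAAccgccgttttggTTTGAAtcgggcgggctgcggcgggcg
Top2a: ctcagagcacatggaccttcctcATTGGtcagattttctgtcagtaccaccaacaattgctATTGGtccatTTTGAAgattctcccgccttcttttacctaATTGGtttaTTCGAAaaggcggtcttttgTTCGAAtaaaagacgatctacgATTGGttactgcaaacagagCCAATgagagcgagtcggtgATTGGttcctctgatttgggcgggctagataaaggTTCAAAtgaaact
Mcm6: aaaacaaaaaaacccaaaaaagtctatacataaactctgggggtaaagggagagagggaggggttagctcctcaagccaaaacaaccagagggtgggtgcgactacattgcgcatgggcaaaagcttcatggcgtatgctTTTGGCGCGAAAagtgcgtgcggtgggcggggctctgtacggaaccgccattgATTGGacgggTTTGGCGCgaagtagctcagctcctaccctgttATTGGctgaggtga
Mcm3: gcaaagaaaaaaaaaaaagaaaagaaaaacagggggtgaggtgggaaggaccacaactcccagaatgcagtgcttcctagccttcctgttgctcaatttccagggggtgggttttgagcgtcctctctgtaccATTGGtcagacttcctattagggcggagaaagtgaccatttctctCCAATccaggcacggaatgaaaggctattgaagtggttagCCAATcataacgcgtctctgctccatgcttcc
The Top2a promoter held 4 CHR and 6 CCAAT matches, and that of Mki67 held 2 CHR and 3 CCAAT matches. The Mcm6 promoter held 3 E2F matches, of which a pair overlaps on opposite strands, and 2 CCAAT matches. The Mcm3 promoter held 3 CCAAT matches and neither of the other motifs.

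Of the 48 members, 39 were matched to a RefSeq promoter, and the 250 bases before the start were searched in each. Some genes have several listed promoters, and a gene was counted if any of them held the motif. CCAAT was found in 20 of 23 mitotic and 8 of 9 S-phase genes, against 37.5% of all 27025 genes with a promoter. At least 2 CCAAT matches were found in 14 of 23 mitotic genes, against 11.5% of all. CHR together with CCAAT was found in 9 of 23 mitotic and 2 of 9 S-phase genes, against 7.0% of all. The E2F letters were found in 3 of 9 S-phase and 1 of 23 mitotic genes, against 2.16% of all. A match of letters is a description of the sequence and not evidence that a factor binds there.

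Levels in the libraries are FPKM, fragments normalised to transcript length and to library depth, and can be compared between genes. In the vehicle library the S-phase genes had a median of 7.58 FPKM, the mitotic genes 1.41 and the G1/S genes 1.11. Pcna, the sliding clamp of the polymerases, was the highest S-phase gene with 44.0 FPKM in the vehicle library, and Rrm2, the regulated subunit of ribonucleotide reductase, the lowest with 2.23. The classes overlapped, since the mitotic genes Ube2c (5.61) and Cenpa (4.09) lay above Rrm2 and above Mcm5 (3.70). Stmn1, a microtubule-destabilising protein, and Hmgb2, a chromatin protein of the high mobility group, stood far above the other members apart from Pcna. Of all members, 32 reached 1 FPKM in every library, 6 in some libraries, and 10 in none: Ccne1, Ccne2, Cdc6, Ccnb1, Bub1, Ttk, Kif2c, Cenpe, Cenpf and Mybl2. The estimated reads of a member ranged from 7 (Ttk with vehicle) to 2294 (Stmn1 with both drugs). Accordingly, single low genes carry wide counting error and the groups are read first by their summed reads.

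**Figure D1:**
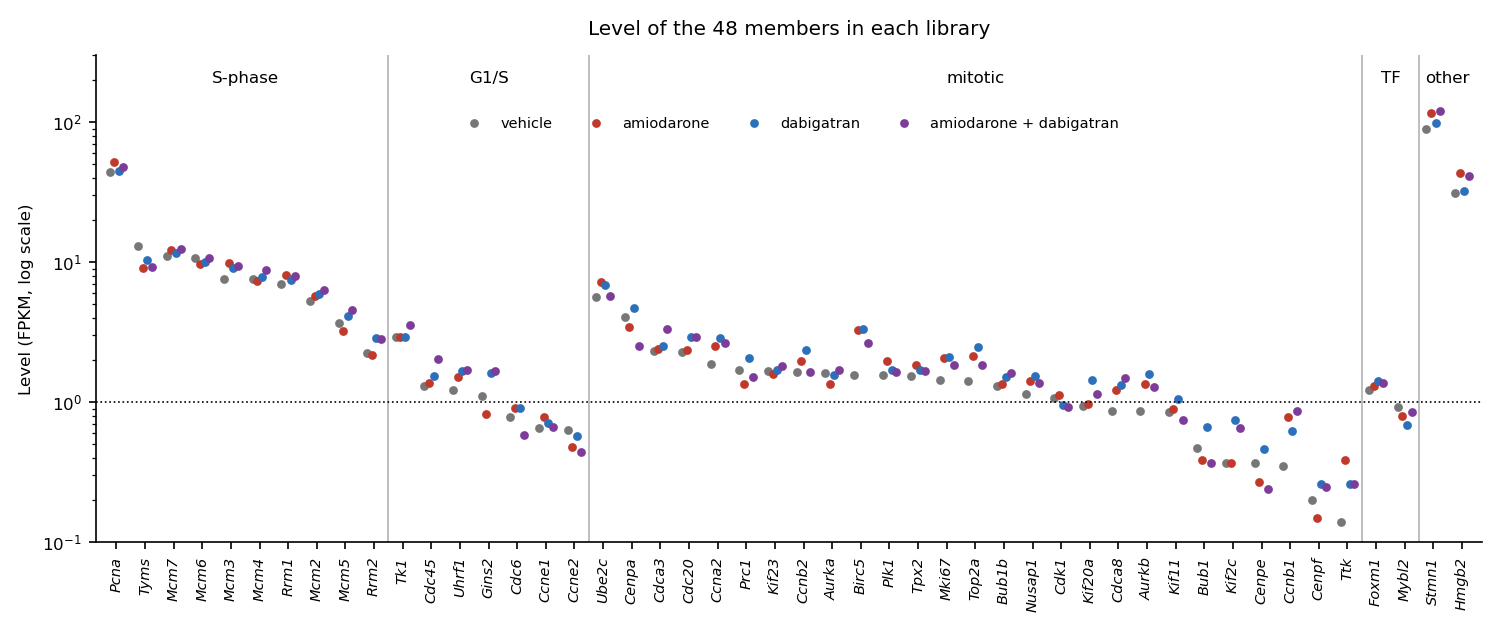
Level of each of the 48 genes in FPKM on a log axis, 1 point per library and colour per treatment group, with vertical lines between gene groups and a dotted line at 1 FPKM. The S-phase genes lie between 2.16 and 51.7 FPKM, with their 4 points close together, whereas the mitotic genes lie between 0.14 and 7.20.

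Among libraries, the S-phase genes spread less than the mitotic genes. The ratio of the highest to the lowest of the 4 libraries had a median of 1.196 over the S-phase genes and 1.54 over the mitotic genes, where counting error is also larger. Summed over the 10 S-phase genes, the vehicle library held 268 RPM (reads per 1000000 reads on genes), the amiodarone library 273, the dabigatran library 270 and the amiodarone + dabigatran library 283. Summed over the 27 mitotic genes, the vehicle library held 100.8 RPM (95% interval 96.1 to 106), the amiodarone library 117 (112 to 122), the dabigatran library 133 (127 to 138) and the amiodarone + dabigatran library 115 (110 to 120). Vehicle was thus the lowest and dabigatran the highest, with the 2 amiodarone-treated groups between them and overlapping in their intervals. These are exact Clopper-Pearson intervals, as for all ratios below. They cover counting error only, compare libraries and not treatments, and take fragments as independent molecules. In bulk RNA, fewer cycling cells and less RNA per cycling cell cannot be told apart.

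**Figure D2:**
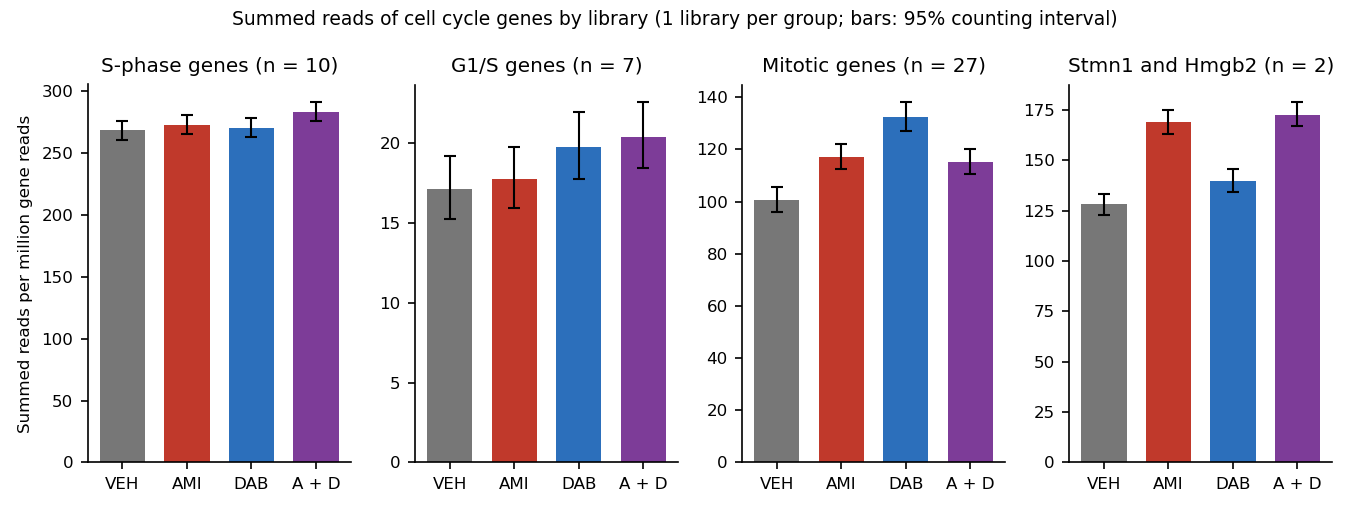
Summed reads of the S-phase, G1/S and mitotic genes and of Stmn1 with Hmgb2 in each library, in reads per 1000000 reads on genes (VEH vehicle, AMI amiodarone, DAB dabigatran, A + D both drugs), 1 library per bar with the 95% counting interval. The S-phase bars lie between 268 and 283, the mitotic bars between 100.8 and 133, and the Stmn1 and Hmgb2 bars are highest in the 2 libraries with amiodarone, 169 and 173.

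Gene by gene, the order of the mitotic sum appeared in part. Vehicle was the lowest of the 4 libraries in 27 of the 48 members and in 16 of the 27 mitotic members, whereas it was the lowest in 21.4% of the 13536 genes that reached 1 FPKM in any library. The 48 members include the 10 that reached 1 FPKM in none, unlike that background. Vehicle was the highest library in 0 of the 27 mitotic members, while dabigatran was the highest in 16. The share of all genes highest in each library was not computed, so the counts of highest libraries have no background beside them. Among the 10 S-phase genes, vehicle was lowest in 5 and amiodarone lowest in 5, while dabigatran was highest in 1. The genes of a class move together in cycling cells and share these 4 libraries, so the counts are not independent pieces of evidence.

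The first comparison, amiodarone against vehicle, addresses the change with the drug that damages the lung. A gene was tested for a change where it reached 1 FPKM in either library, and called at 1.5-fold on the scale log2(FPKM + 0.1), which understates the change of low genes. A gene under 1 FPKM in the other library thus passed only through the library where it is higher. Of 36 members tested, 1 was called higher, Birc5, and 0 were called lower. Over all 13402 genes tested, 5.36% were called higher and 6.8% lower, so the members' share lay near or below that of all genes. Ccnb1 and Ttk, below the filter in both libraries, also passed 1.5-fold upwards. At a minimum of 5 FPKM 0 members were called, against 4.68% of all genes higher and 4.18% lower. By the weaker rule of an interval that leaves out 1, 9 of 36 were higher and 1 lower, against 19.5% and 30.1% of all genes. The median log2 difference was 0.05 over the S-phase genes and 0.06 over the mitotic genes, against -0.05 over all genes tested.

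Birc5, survivin, which serves the chromosomal passenger complex and inhibits apoptosis, had 1.57 FPKM with vehicle, 3.29 after amiodarone, 3.32 after dabigatran and 2.64 after both drugs. It was lowest with vehicle and similar in the other libraries. Amiodarone against vehicle gave 2.10-fold (1.39 to 3.26) on 36 and 68 reads. The reads alone differ less than the FPKM, and the interval takes the FPKM scaling as exact. Top2a, the topoisomerase that untangles replicated chromosomes, had 1.41, 2.14, 2.48 and 1.86 FPKM in the same order. The ratio with amiodarone was 1.52 (1.21 to 1.91), just short of the threshold once 0.1 FPKM was added. Mki67, the Ki-67 protein that coats mitotic chromosomes and is the usual stain for proliferating cells, had 1.45, 2.07, 2.09 and 1.84 FPKM. Its ratio with amiodarone was 1.43 (1.21 to 1.69).

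These 2 genes carried much of the mitotic sum. The summed mitotic reads were 1.16-fold higher with amiodarone (1.09 to 1.24), but 1.08-fold (1.01 to 1.16) over the 25 genes without Mki67 and Top2a, a set chosen after seeing the data. Mitotic genes went in either direction: of all 27, Mki67 and Top2a included, 19 were higher and 7 lower, where 41% of all genes tested were higher and 58.6% lower. Cyclin B1 (Ccnb1), which drives entry into mitosis, had 0.35 FPKM with vehicle and 0.78 with amiodarone, 2.23-fold (1.16 to 4.51). Cyclin A2 (Ccna2), active from S phase into mitosis, had 1.88 and 2.53, 1.35-fold (1.02 to 1.77). In contrast, the kinetochore motor gene Cenpe had 0.37 and 0.27, and the gene of the midzone protein Prc1 had 1.70 and 1.34, with intervals of the ratio that include 1. The catalytic kinase of mitosis, Cdk1, had 1.08 and 1.12.

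Among the S-phase genes the parts of one machine did not move as one. The 6 MCM genes encode the ring of the replicative helicase in equal numbers of subunits. With amiodarone, Mcm3 was 1.29-fold (1.13 to 1.47) the vehicle value, at 9.79 against 7.60 FPKM. Mcm5 was 0.870-fold (0.703 to 1.08), at 3.22 against 3.70 FPKM, and Mcm6 0.911-fold (0.808 to 1.03). Pcna was 1.18-fold (1.08 to 1.28) and Rrm1, the large subunit of ribonucleotide reductase, 1.17-fold (1.03 to 1.32). The other reductase subunit, Rrm2, was 0.969-fold (0.708 to 1.33).

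Tyms, thymidylate synthase, went the other way. It had 13.1 FPKM with vehicle, 9.02 after amiodarone, 10.3 after dabigatran and 9.22 after both drugs. Vehicle was the highest library, as in 4 of the 48 members, a count without a share of all genes beside it. The ratio with amiodarone was 0.690 (0.621 to 0.765) on 859 and 635 reads, and with dabigatran 0.791 (0.714 to 0.874). A named copy of the gene, Tyms-ps, exists in the mouse annotation, as do copies of Pcna, Ccnb1, Ccnb2 and Stmn1, and how reads were divided between gene and copy is not given in the sources used here.

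Stmn1 and Hmgb2, which are abundant in dividing cells and also expressed outside the cycle, were both higher with amiodarone. Stmn1 had 88.8 FPKM with vehicle, 116 after amiodarone, 98.9 after dabigatran and 121 after both drugs. Hmgb2 had 31.3, 43.0, 32.4 and 41.2 FPKM. In both genes the 2 amiodarone-treated libraries were the highest. The ratios with amiodarone alone were 1.30 (1.22 to 1.39) and 1.37 (1.245 to 1.52), and with amiodarone added to dabigatran 1.22 (1.15 to 1.30) and 1.27 (1.15 to 1.40).

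**Figure D3:**
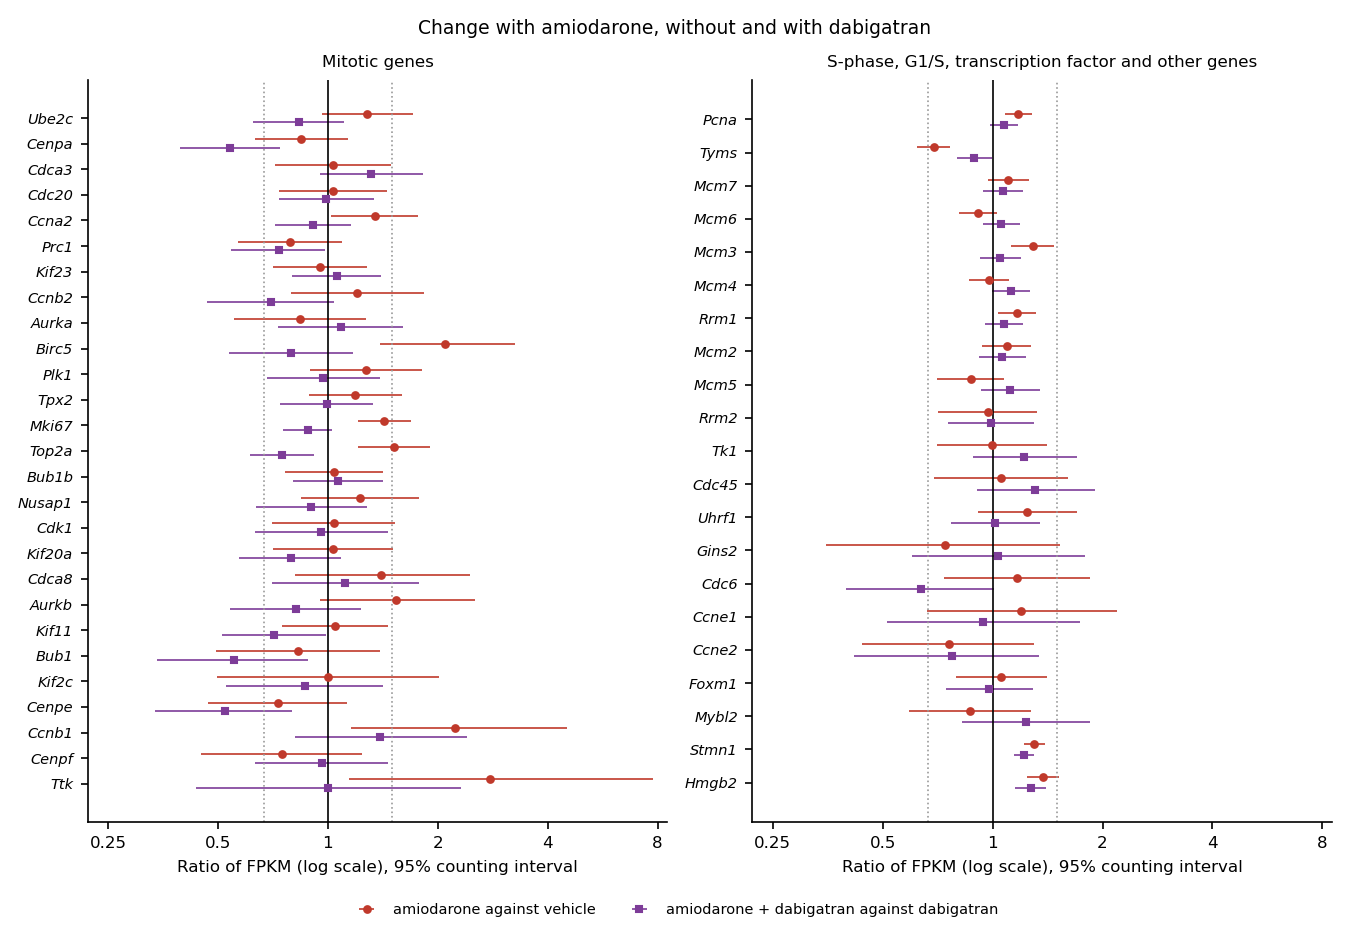
Ratio of FPKM for each member with amiodarone, on a log axis with 95% counting intervals, without dabigatran (circles, against vehicle) and with it (squares, against dabigatran), with dotted lines at 1.5-fold. Top2a lies at 1.52 without and at 0.750 with dabigatran, while Stmn1 lies at 1.30 and 1.22.

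The change with amiodarone was then read in mice that also had dabigatran, in the amiodarone + dabigatran library against the dabigatran library. This pair shares no library with the pair above. Of 37 members tested, 0 were called higher and 1 lower, against 4.28% of all 13379 genes higher and 4.1% lower. The gene called was Cenpa, the histone variant that marks centromeres, with 4.70 FPKM in the dabigatran library and 2.54 with both drugs, a ratio of 0.540 (0.393 to 0.738). It had 4.09 FPKM with vehicle and 3.46 with amiodarone, so that the library with both drugs was the lowest and dabigatran the highest. Below the filter, Cenpe (0.522) and the spindle checkpoint kinase gene Bub1 (0.552) were also lower by more than 1.5-fold. Of the members tested, 2 were higher and 5 lower by an interval that leaves out 1, against 19.5% and 23.4% of all genes.

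Beside dabigatran, the mitotic genes thus lay on the other side of 1. Their median log2 difference was -0.14, against -0.01 over all genes, with 6 genes higher and 20 lower, where 47.1% of all genes were higher and 52.5% lower. The summed mitotic reads gave 0.870 (0.820 to 0.922), where amiodarone alone had given 1.16. The denominator beside dabigatran is the dabigatran library, which was the highest in 16 of the 27 mitotic members. Top2a gave 0.750 (0.614 to 0.915), and Birc5 0.795 (0.537 to 1.17). The S-phase genes gave a median of 0.09 and a summed ratio of 1.05 (1.01 to 1.09), with 8 of 10 higher. Over both amiodarone comparisons, 13 members were higher in both, 8 lower in both and 25 opposite, while of all genes 26.4% were higher in both, 37.8% lower in both and 35.1% opposite. Of the 27 mitotic members, 16 were opposite, and of the 10 S-phase members 3 were.

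Dabigatran against vehicle gave the largest shift of the mitotic genes. Of 38 members tested, 4 were called higher (Birc5, Aurkb, Top2a and Ccna2) and 0 lower, against 1.29% of all 13373 genes higher and 1.38% lower. All 4 are mitotic, and 21 mitotic members were tested. Aurkb passed the filter only through the dabigatran library, where it is higher. With a pseudocount of 1 the number called was 1, and at a minimum of 5 FPKM it was 0. Of all genes, 0.449% and 0.414% were called higher under these settings. The interval left out 1 in 9 members that were higher and 1 that was lower, against 15.2% and 13.4% of all genes. The median log2 difference was 0.35 over the 27 mitotic genes, 0.07 over the S-phase genes and 0.00 over all genes tested, and that of the mitotic genes was 0.18 with a pseudocount of 1. In all, 25 of the 27 mitotic genes were higher, where 50.1% of all genes tested were higher and 49.5% lower, and the exceptions were Cdk1 (0.889, 0.589 to 1.34) and the kinase gene Aurka (0.963, 0.641 to 1.45). The summed mitotic reads were 1.32-fold higher (1.24 to 1.40), and 1.249-fold (1.16 to 1.34) without Mki67 and Top2a, while the summed S-phase reads gave 1.01 (0.968 to 1.05).

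Of the genes called, Birc5 gave 2.11-fold (1.38 to 3.28) on 36 and 62 reads, which alone differ less than the FPKM. Top2a gave 1.76-fold (1.41 to 2.2). Aurkb, the kinase that works with survivin in the passenger complex, had 0.87 FPKM with vehicle, 1.34 after amiodarone, 1.58 after dabigatran and 1.29 after both drugs, and gave 1.82-fold (1.14 to 2.96). A further subunit of that complex, borealin (Cdca8), had 0.87, 1.22, 1.33 and 1.48 FPKM and gave 1.53-fold (0.890 to 2.67). Vehicle was the lowest library in each of these 3 genes, as in 21.4% of the 13536 genes that reached 1 FPKM in any library. Birc5 and Aurkb were named because they were called higher against vehicle, so their low vehicle value adds no evidence. Ccna2 had 1.88, 2.53, 2.89 and 2.63 FPKM and gave 1.54-fold (1.17 to 2.01). The kinesin genes spread widely: Kif2c gave 2.03-fold (1.13 to 3.78) at 0.37 and 0.75 FPKM, Kif20a 1.54-fold (1.10 to 2.21), and Kif23 1.03-fold (0.769 to 1.38). Of the exon bases of Kif20a, 29.3% overlap Cdc23 on the opposite strand, and of those of Ccna2 12.5% overlap Exosc9, and whether the counting used strand is not given in the sources used here.

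Both transcription factors of the mitotic genes had low levels. Foxm1 had 1.23 FPKM with vehicle, 1.30 after amiodarone, 1.41 after dabigatran and 1.38 after both drugs, a ratio of 1.15 (0.861 to 1.53) with dabigatran. Mybl2, which encodes B-Myb, had 0.92, 0.80, 0.69 and 0.85 FPKM, with dabigatran the lowest, a ratio of 0.750 (0.499 to 1.12). Neither interval leaves out 1. The G1/S genes summed to 17.1 RPM with vehicle, 17.8 after amiodarone, 19.8 after dabigatran and 20.4 after both drugs, and their intervals overlap. Uhrf1, which guides maintenance of DNA methylation behind the fork, had 1.22, 1.52, 1.67 and 1.70 FPKM and gave 1.37-fold (1.01 to 1.87) with dabigatran.

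**Figure D4:**
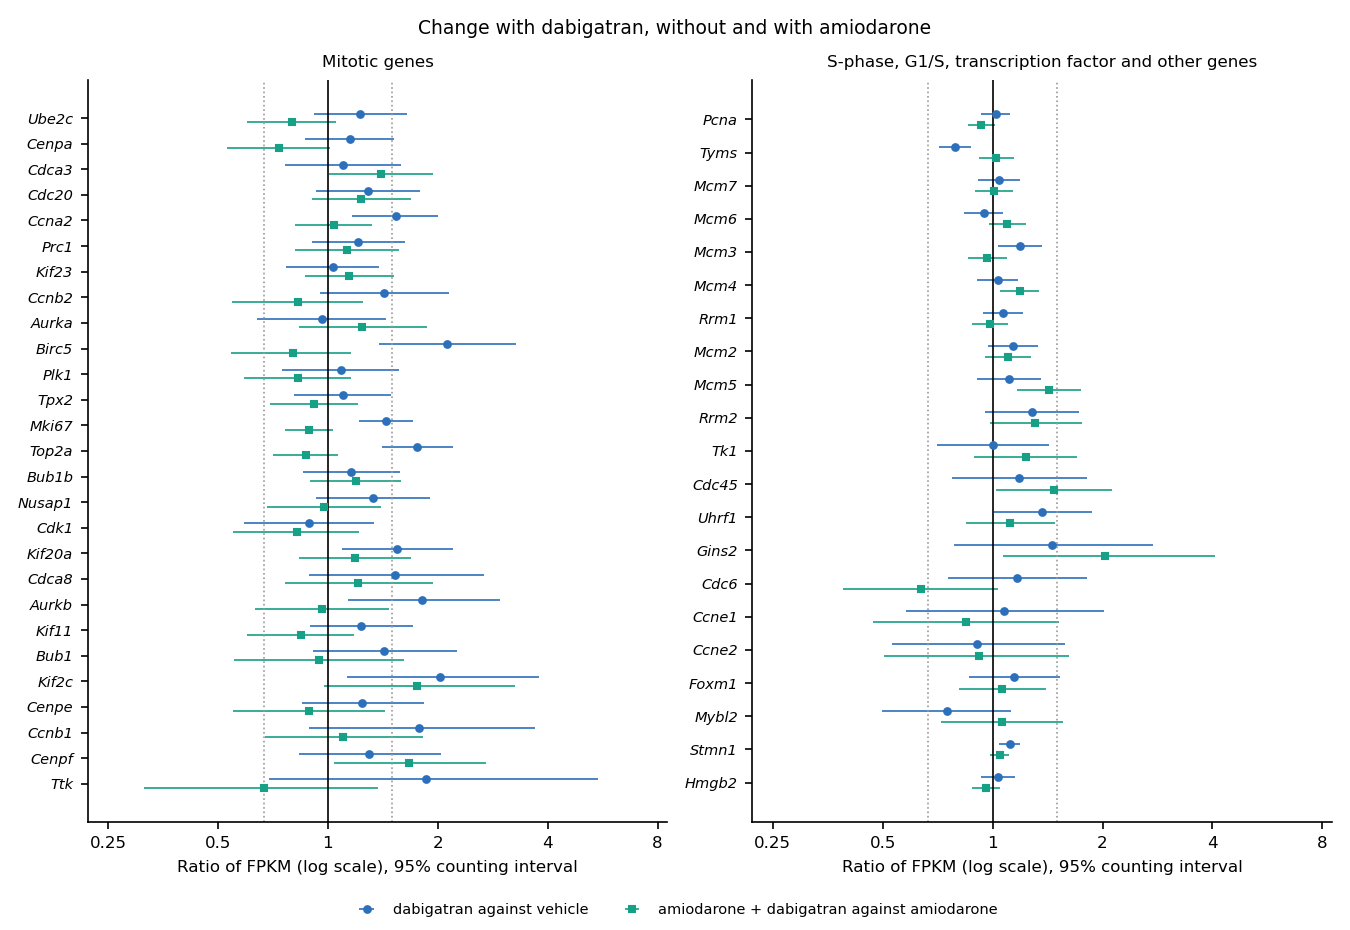
Ratio of FPKM for each member with dabigatran, on a log axis with 95% counting intervals, without amiodarone (circles, against vehicle) and with it (squares, against amiodarone), with dotted lines at 1.5-fold. Without amiodarone 25 of the 27 mitotic genes lie above 1, and with it 12 do.

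The last comparison, both drugs against amiodarone, addresses what dabigatran changed in amiodarone-treated lungs. Of 37 members tested, 1 was called higher, Gins2, and 0 lower, against 2.26% of all 13261 genes higher and 1.96% lower. Gins2, a subunit of the GINS complex that joins the helicase at the fork, had 1.11 FPKM with vehicle, 0.82 after amiodarone, 1.61 after dabigatran and 1.67 after both drugs. The ratio was 2.04 (1.07 to 4.06) on 15 and 31 reads, and 67.3% of the exon bases of Gins2 overlap Gse1 on the opposite strand. Gins2 passed the filter only through the library with both drugs, where it is higher, so its call depends on that value. Its partner in the active helicase, Cdc45, had 1.31, 1.38, 1.55 and 2.03 FPKM, a ratio of 1.47 (1.02 to 2.13). The reads of Cdc45, 55 and 73, differ less than the FPKM, and the interval takes the FPKM scaling as exact. Below the filter, Kif2c gave 1.76 (0.974 to 3.26) and the kinetochore gene Cenpf 1.67 (1.04 to 2.72) on 30 and 50 reads. The interval left out 1 in 5 tested members that were higher and 0 that were lower, against 21.1% and 15% of all genes.

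In this pair the mitotic genes showed no common direction. Their median log2 difference was -0.05, against 0.03 over all genes, with 12 genes higher and 15 lower, where 57.7% of all genes were higher and 42% lower, and the summed reads gave 0.983 (0.926 to 1.04). Birc5 gave 0.802 (0.542 to 1.16), Mki67 0.889 (0.763 to 1.04) and Top2a 0.869 (0.708 to 1.07), so that none of these 3 genes differed beyond counting error between amiodarone and both drugs. The S-phase genes had a median of 0.08 and a summed ratio of 1.04 (0.998 to 1.08). Mcm5 gave 1.43 (1.17 to 1.74) and Mcm4 1.19 (1.05 to 1.34). Over both dabigatran comparisons, which share no library, 22 members were higher in both, 2 lower in both and 24 opposite, against 26.7%, 18.6% and 53.8% of all genes. Of the 27 mitotic members, 11 were higher in both and 15 opposite.

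**Figure D5:**
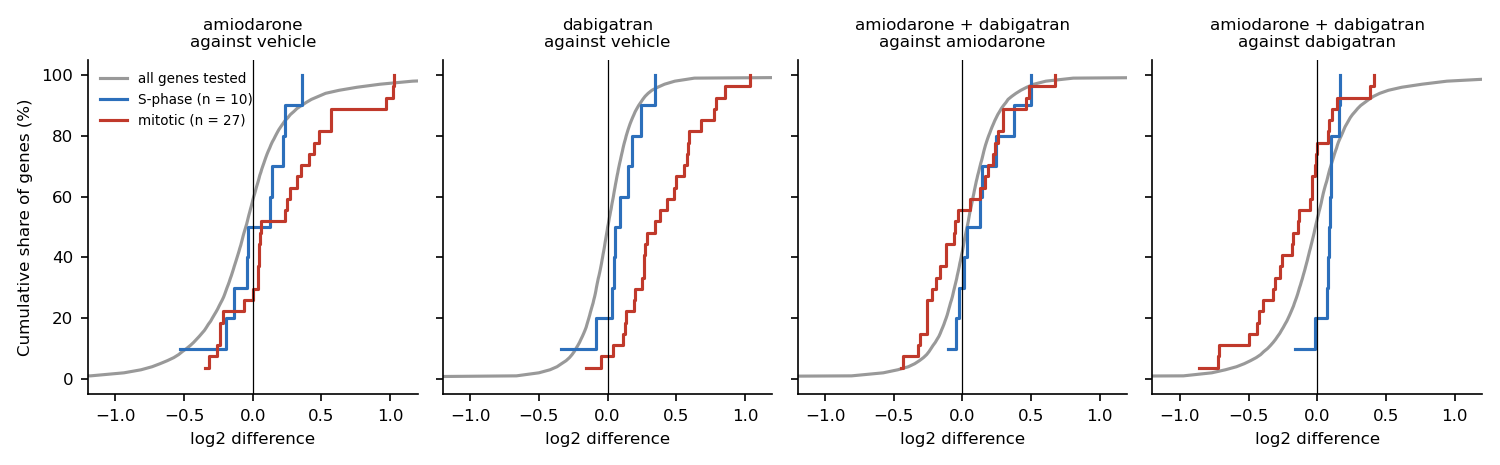
Cumulative share of genes (%) against the log2 difference on the scale log2(FPKM + 0.1) in the 4 comparisons, for the 10 S-phase genes, the 27 mitotic genes and all genes tested. The mitotic curve lies right of all genes with dabigatran against vehicle (median 0.35 against 0.00) and left of them with both drugs against dabigatran (median -0.14 against -0.01). These comparisons share the dabigatran library, on opposite sides of the ratio, so the shifts are not independent.

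Another 103 cell cycle genes, listed by function beside the members, were read in the same way. With amiodarone against vehicle, 3 of the 74 tested were called higher and 1 lower, against 5.36% and 6.8% of all genes. With dabigatran against vehicle, 0 of 75 were called higher and 1 lower, against 1.29% and 1.38%. With both drugs against amiodarone, 2 of 75 were called higher and 1 lower, against 2.26% and 1.96%, and with both drugs against dabigatran 4 of 76 higher and 3 lower, against 4.28% and 4.1%. These counts lay near or below the shares of all genes. The list of other spindle, kinetochore and cytokinesis genes (35 genes) had a median of 0.26 with dabigatran against vehicle, with 25 higher and 8 lower, where 50.1% of all genes were higher and 49.5% lower. Of the 35 genes, 16 passed the filter and 0 were called, and the summed reads gave 1.05 (1.01 to 1.10). Of its members, Cks2, a small subunit of cyclin-dependent kinases, had 3.77 FPKM with vehicle and 6.45 with amiodarone, 1.71-fold (1.16 to 2.55). The mitotic gene Ckap2l had 1.30 FPKM with dabigatran and 0.82 with both drugs, a ratio of 0.631 (0.428 to 0.923). The list of other origin, fork and polymerase genes (27 genes) had medians between -0.03 and 0.12. In it, Cdt1, which loads the helicase on origins, had 3.31, 3.25, 4.43 and 4.94 FPKM, 1.52-fold (1.21 to 1.91) with both drugs against amiodarone. Gins3 had 1.28, 1.15, 0.69 and 1.10 FPKM, with dabigatran the lowest at 0.539-fold (0.330 to 0.863) of vehicle, and thus did not follow Gins2.

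Inhibitors of cyclin-dependent kinases and targets of p53 were read next. Cdkn1a, which encodes the inhibitor p21, had 34.5 FPKM with vehicle, 94.03 after amiodarone, 35.1 after dabigatran and 62.2 after both drugs. It was high in both libraries with amiodarone and level in the other two. The ratio was 2.73 (2.55 to 2.92) with amiodarone against vehicle, 1.78 (1.65 to 1.91) with both drugs against dabigatran, and 0.662 (0.627 to 0.699) with both drugs against amiodarone. Cdkn1c (p57) had 24.7, 33.3, 23.2 and 35.7 FPKM and was 1.54-fold (1.40 to 1.68) with both drugs against dabigatran. Cdkn2c (p18) was lower with amiodarone, 8.84 against 13.4 FPKM, a ratio of 0.662 (0.555 to 0.787), whereas Cdkn1b (p27) had 35.4, 37.7, 35.2 and 37.4. Among other targets of p53, Sesn2 gave 1.70-fold (1.43 to 2.02) with amiodarone, while Mdm2 gave 0.970 (0.895 to 1.05), Ccng1 0.902 (0.849 to 0.959), Bax 1.14 (1.02 to 1.27) and the antiproliferative gene Btg2 0.747 (0.714 to 0.782). The p53 targets therefore did not share 1 direction.

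Cyclin D1 (Ccnd1), which carries growth signals to the cycle, had 86.3 FPKM with vehicle, 61.5 after amiodarone, 92.4 after dabigatran and 48.7 after both drugs. The 2 libraries with amiodarone were the lowest. The ratio was 0.712 (0.685 to 0.741) with amiodarone against vehicle and 0.527 (0.506 to 0.550) with both drugs against dabigatran. Ccnd2 had 30.6, 25.3, 32.8 and 23.8 FPKM. All 5 genes of the list of D cyclins and their kinases were lower with amiodarone than with vehicle and higher with dabigatran, as were 58.6% and 50.1% of all genes, with Cdk6 at 0.998 and 1.19. E2f1, an activating E2F, had 4.63, 3.77, 5.88 and 5.77 FPKM, 1.53-fold (1.27 to 1.85) with both drugs against amiodarone. The 10 genes of pocket proteins and the DREAM complex, which hold the cell cycle genes down at rest, had 0 calls in any comparison. Of these, Rb1 had 10.8 FPKM with vehicle and 12.9 with amiodarone, 1.201-fold (1.10 to 1.31).

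Markers of the cell types of the tissue also differed between the libraries. Of 14 macrophage markers, 10 were called higher with amiodarone against vehicle, where 5.36% of all genes were. With both drugs against dabigatran 11 were, where 4.28% of all genes were. They summed to 3951 RPM with vehicle, 6734 after amiodarone, 4298 after dabigatran and 6765 after both drugs. Lyz2 held 59492 of the 69142 vehicle reads in this sum. Chil3 went from 2345 reads with vehicle to 20330 with amiodarone, while Csf1r was 1.05-fold (0.997 to 1.11). The 10 neutrophil markers summed to 140, 488, 146 and 370 in the same order. Ltf held 1150 of the 2452 vehicle reads in this sum and had 24.4, 28.2, 33.2 and 15.2 FPKM, lowest with both drugs. Camp and Ngp did not rise beyond counting error with amiodarone against vehicle. The 9 B cell markers summed to 333, 169, 305 and 222, and the 7 fibroblast markers to 2108, 1505, 2506 and 1695. The 9 endothelial markers were all higher with dabigatran than with vehicle, as were 50.1% of all genes. Their sums were 4854, 5558, 5638 and 4620, lowest with both drugs. The 9 T and NK cell markers found summed to 75.9, 71.5, 84.0 and 73.1, highest with dabigatran. The 9 erythroid markers summed to 8466, 11511, 9407 and 4621. Of 7 markers of myeloid progenitors, Elane, Mpo, Ctsg and Ms4a3 had at most 0.07 FPKM in any library, whereas Kit had 40.2, 35.0, 40.9 and 32.1 FPKM and Cd34 71.9, 59.3, 83.7 and 58.7. Prtn3 had 0.56, 1.34, 0.43 and 1.67 FPKM, and was called higher with amiodarone against vehicle, 2.39-fold (1.07 to 5.88), and with both drugs against dabigatran, 3.88-fold (1.66 to 10.5). In each comparison Prtn3 passed the filter only through the library where it is higher. Alveolar epithelial markers (9 genes) summed to 28350, 29923, 27788 and 30603, with Sftpc between 19587 and 20385 FPKM, as the label of lung tissue implies, and 7 airway markers to 52662, 31625, 41983 and 41497. A single gene held 124168 of the 126687 summed FPKM of the airway markers with vehicle. The part of these cell types in the levels of the cell cycle genes was not tested.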

How the data were processed

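Poly(A)+ RNA from the left lung was sequenced by the study on DNBseq, with 1 library for each of 4 groups. Per the methods, reads were aligned with HISAT 2.0.4 (genome GRCm38.p6) and Bowtie2 2.2.5 (gene sequences), and RSEM 1.2.8 quantified each gene. The deposited table gives each gene an estimated count of reads and a normalized value per library. The authors do not name the unit of that value. It was read as FPKM, since reads per unit of value in the deposited table differ between libraries by the ratio of their total reads (1.07 for amiodarone against vehicle). Because the values are linear, logarithms were taken here, after the methods. The 8 further columns are averages of libraries, which no result uses.

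Groups were taken from the labels. With 1 library per group, ratios of FPKM are given with exact Clopper-Pearson intervals at 95% from the rounded read estimates of the pair (scipy 1.17.1). The interval of the reads is rescaled to the ratio of FPKM, which is taken as exact. For single genes the reads and the FPKM can differ in the size of a change. Calls needed 1.5-fold on log2(FPKM + 0.1) and at least 1 FPKM in either library, and medians cover all members of a group. Summed reads are per 1000000 gene reads (RPM). A count of 0 allows up to 3 reads, or 1.71e-05% of the vehicle library. The 4 comparisons are each drug against vehicle and both drugs against each drug. Amiodarone against vehicle shares the vehicle library with dabigatran against vehicle, and both drugs enter the other pair. Dabigatran against vehicle and both drugs against dabigatran share the dabigatran library, on opposite sides of the ratio. The amiodarone library is shared likewise, so such comparisons are not independent. The alternatives were other pseudocounts, filters, scalings and thresholds.

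The members, gene lists and tests were chosen with earlier results of these data known. All members could be named. Of the other cell cycle genes, those named are the 4 largest rises and falls per comparison past 1.5-fold whose interval leaves out 1, and genes of lists of at most 10. Coordinates come from the RefSeq table for GRCm38.p6, in which 99.4% of identifiers were found. Promoters come from RefSeq, as do the copies, found only where a symbol adds -ps or -rs to the gene name, and overlaps come from GENCODE M21. Stretches inside a transcript of the gene were not printed. In data simulated for amiodarone against vehicle with 13195 genes, 97% of 100 genes changed 2-fold and 100% of 100 changed 4-fold were called. Of unchanged genes 0.446% were called, and 95.3% of intervals held the true ratio. Both simulated libraries were Poisson draws from the vehicle reads, without variation between animals, so these rates cover counting error only.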

Additional observations from a re-analysis of the deposited data

Results flagged for a closer look

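The 48 members, the 103 other cell cycle genes and the summed reads of the members and their groups were searched for changes of side. In 4 results the difference under one drug lay on opposite sides of 1 without and with the other drug, each beyond counting error. Each rests on 1 library per group, and the difference between the drug's changes was not tested across animals. The share of all genes that meet this rule was not computed. At any size, 35.1% of all genes were opposite for amiodarone and 53.8% for dabigatran.

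Top2a gave 1.52 with amiodarone against vehicle and 0.750 with both drugs against dabigatran. The summed reads of the 27 mitotic genes, Top2a among them, gave 1.16 and 0.870 in the same comparisons. Without Mki67 and Top2a, a set chosen after seeing the data, they gave 1.08 and 0.883. For dabigatran, Ccnd1 gave 1.07 against vehicle and 0.792 with both drugs against amiodarone, and Ccnd2 gave 1.07 and 0.942.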

How the results depend on the processing

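No paired analysis was possible because each group has 1 library. No library could be left out for the same reason, and the depth limits single mitotic genes, most of which had under 150 reads per library. Over the 48 members and 4 comparisons, the log2 differences stayed within counting error of the values given under the other pseudocount, the median ratio scaling and RPM. The medians of the S-phase and mitotic genes kept their direction in each, and that of the mitotic genes with dabigatran against vehicle was 0.35 as given, 0.35 with the median ratio scaling, 0.34 with RPM and 0.18 with a pseudocount of 1. At 5 FPKM too few mitotic genes were left for a median. The counts of calls are small and moved with most settings, as follows, with a difference of 25% tried in place of 1.5-fold.

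With amiodarone against vehicle, the 1 member called higher (mitotic) became 0 at 5 FPKM, 3 without a filter, 3 with the median ratio scaling and 5 with RPM. That count became 11 at the 25% threshold (8 mitotic and 2 S-phase calls in either direction) and 9 by the counting interval. By that interval 4 mitotic and 4 S-phase members were called in either direction, Tyms being lower. The 0 lower became 2 at the 25% threshold and 1 by the counting interval. With dabigatran against vehicle, the 4 higher (all mitotic) became 1 with a pseudocount of 1, 0 at 5 FPKM and 1 at 2-fold. That count became 13 at the 25% threshold (10 mitotic) and 9 by the counting interval. Under each of these last 2 settings 2 S-phase members were called in either direction, Tyms being lower. The 0 lower became 1 under each of them. With both drugs against amiodarone, the 1 higher became 0 with a pseudocount of 1, at 5 FPKM and at 2-fold. That count became 2 without a filter (1 mitotic) and 3 with RPM (2 mitotic). At the 25% threshold it became 5 (2 mitotic and 2 S-phase calls in either direction), and by the counting interval 5 (1 mitotic, 2 S-phase). The 0 lower became 1 at the 25% threshold. With both drugs against dabigatran, the 1 lower (mitotic) became 0 at 5 FPKM and at 2-fold, 3 without a filter, 4 with RPM (3 mitotic), 5 at the 25% threshold (6 mitotic calls in either direction) and 5 by the counting interval (4 mitotic, 1 S-phase), and the 0 higher became 3 at the 25% threshold and 2 by the counting interval. At 25%, 11.01% of all genes were called higher with amiodarone and 5.07% with dabigatran.

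Leaving out the 2 members of a group with most reads was chosen after seeing the data. Without Mki67 and Top2a the mitotic sum with amiodarone moved from 1.16 to 1.08, and without Pcna and Tyms the S-phase sum moved from 1.02 to 1.06 with amiodarone and from 1.01 to 1.07 with dabigatran. The pseudocount, filter and threshold act by their construction on genes of low level, and for the 2 scalings the cause was not tested.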

Other observations

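Beyond the members already described, Cdca3, which helps to degrade the mitotic brake Wee1, was highest with both drugs. It had 2.31 FPKM with vehicle, 2.39 after amiodarone, 2.54 after dabigatran and 3.34 after both. Its ratio was 1.40 (1.01 to 1.95) against amiodarone and 1.31 (0.953 to 1.82) against dabigatran. Ube2c, the conjugating enzyme of the anaphase-promoting complex, was the mitotic gene with the highest level and had 5.61, 7.20, 6.88 and 5.74 FPKM, with 22.8% of its exon bases overlapping Tnnc2 on the opposite strand. Its coactivator Cdc20 had 2.28, 2.35, 2.93 and 2.90 FPKM, higher in the 2 libraries with dabigatran. Plk1 had 1.56, 1.98, 1.69 and 1.64, and Tpx2, which activates Aurora A on the spindle, 1.54, 1.83, 1.69 and 1.68.

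Thymidine kinase (Tk1), the salvage enzyme beside Tyms, had 2.91, 2.90, 2.92 and 3.57 FPKM and did not share the high vehicle value of Tyms. The E-type cyclins Ccne1 and Ccne2, on 22 to 33 reads per library, had 0.66, 0.79, 0.71 and 0.67 and 0.63, 0.48, 0.57 and 0.44 FPKM. Cdc6, which loads the helicase with Cdt1, had 0.78, 0.91, 0.91 and 0.58 FPKM, lowest with both drugs where Cdt1 was highest.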
